A study of Mus musculus with 12 samples.

Results

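The 37 genes described here make up the Nrf2-linked antioxidant system of cultured mouse astrocytes and the enzymes that supply it with reducing power. They were taken by gene name from a deposited table of 54532 genes, in which each of the 37 had 1 row. The names were a given list of antioxidant and NADPH genes. No measured value entered the rule itself, but the list was chosen with earlier results of these data known. All 37 reached at least 1 FPKM (fragments scaled to gene length and to library depth) in at least 2 of the 12 libraries, the minimum set for testing, which 14014 genes passed.

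Nrf2, encoded by Nfe2l2, is a transcription factor that the adaptor Keap1 marks for degradation in unstressed cells. Oxidants and electrophiles modify Keap1, and Nrf2 then enters the nucleus, pairs with small Maf proteins and binds antioxidant response elements in front of genes for glutathione synthesis, conjugation, thioredoxin and NADPH supply. Astrocytes are known as the brain cells with a strong Nrf2 response and as suppliers of glutathione precursors to neurons. The pentose phosphate pathway regenerates NADPH, which glutathione reductase and thioredoxin reductase use to keep their substrates reduced.

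RNA was sequenced from astrocyte cultures made from the cortex plus hippocampus of C57BL/6 adults, in 3 experiments with 2 libraries in each of 6 groups and separate controls in each experiment. The first compared a conditional knockout (cKO) of Ogt, the X-linked enzyme that adds the sugar O-GlcNAc to proteins, with its control, both from mice 4 months old. The labels give the genotype Glast-CreERT2::Ogtfloxp/Y for both of these groups, so the controls are listed with the same Cre driver and floxed allele, and only the sample descriptions tell them apart. Glast-CreERT2 is an astrocyte-directed Cre that needs tamoxifen, and the labels mention none. The second compared cultures from a 5X APP mouse model of Alzheimer's disease (AD model), which carries amyloid transgenes, with wild-type controls. Their age is 6 months by the sample labels, whereas the series text gives 5 months. The third compared wild-type cultures of mice 2 months old kept with 20 µM amyloid-beta 1-42 (Aβ-treated) with untreated wild-type cultures (Aβ controls). The exposure is given as 72 hours, and as 73 hours for 1 of the 2 treated samples. Nothing says that replicates came from separate animals or cultures, so the p-values measure only the spread between these libraries, which may be technical.

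Each library held between 16418852 and 18705309 reads in genes, recovered from the FPKM values. Ogt itself had 11.04 and 12.03 FPKM in Ogt cKO libraries, against 20.8 and 24.7 FPKM in cKO controls, and Mgea5, which encodes the enzyme that removes O-GlcNAc, had 16.6 and 15.9 FPKM in Ogt cKO libraries, against 43.4 and 43.03 FPKM in cKO controls. Both fell in the Ogt cKO, by 0.92 and 1.36 on the log2 scale (limma adjusted p = 0.0378 and 0.0202). Low values were not particular to the Ogt cKO. Ogt had 7.85 and 10.4 FPKM in Aβ controls, which are wild type, and 12.4 and 10.6 FPKM in Aβ-treated libraries. It had 18.3 and 19.9 FPKM in AD model libraries and 10.025 and 22.7 FPKM in AD controls. Mgea5 had 12.3 and 16.5 FPKM in Aβ controls. A value for the whole gene does not show whether the floxed part was lost. Astrocyte markers other than Gjb6 were found in every library, with Gfap at 29.1 to 298 FPKM, Aqp4 at 1.47 to 26.4 FPKM and Aldh1l1 at 6.90 to 24.98 FPKM. Gjb6 was at 0 in 7 libraries and did not exceed 0.326 FPKM, and Slc1a2 was as low as 0.838 FPKM. Microglia and macrophage markers were also present, with Tmem119 at 2.18 to 20.1 FPKM and P2ry12 at 0 to 1.69 FPKM. Their 12 markers summed to 1003 to 8720 FPKM, more than the 86.7 to 660 FPKM of the 12 astrocyte markers in all 12 libraries. Lyz2, which macrophages express strongly, made up 522 to 5762 FPKM of the first of these sums. The 8 neuronal markers summed to 45.96 to 186 FPKM, most of it Tubb3 at 40.6 to 177 FPKM, while Snap25 and Rbfox3 did not exceed 0.0375 and 0.0577 FPKM. In such bulk cultures, fewer cells of a type and less RNA per cell cannot be told apart.

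**Figure D1:**
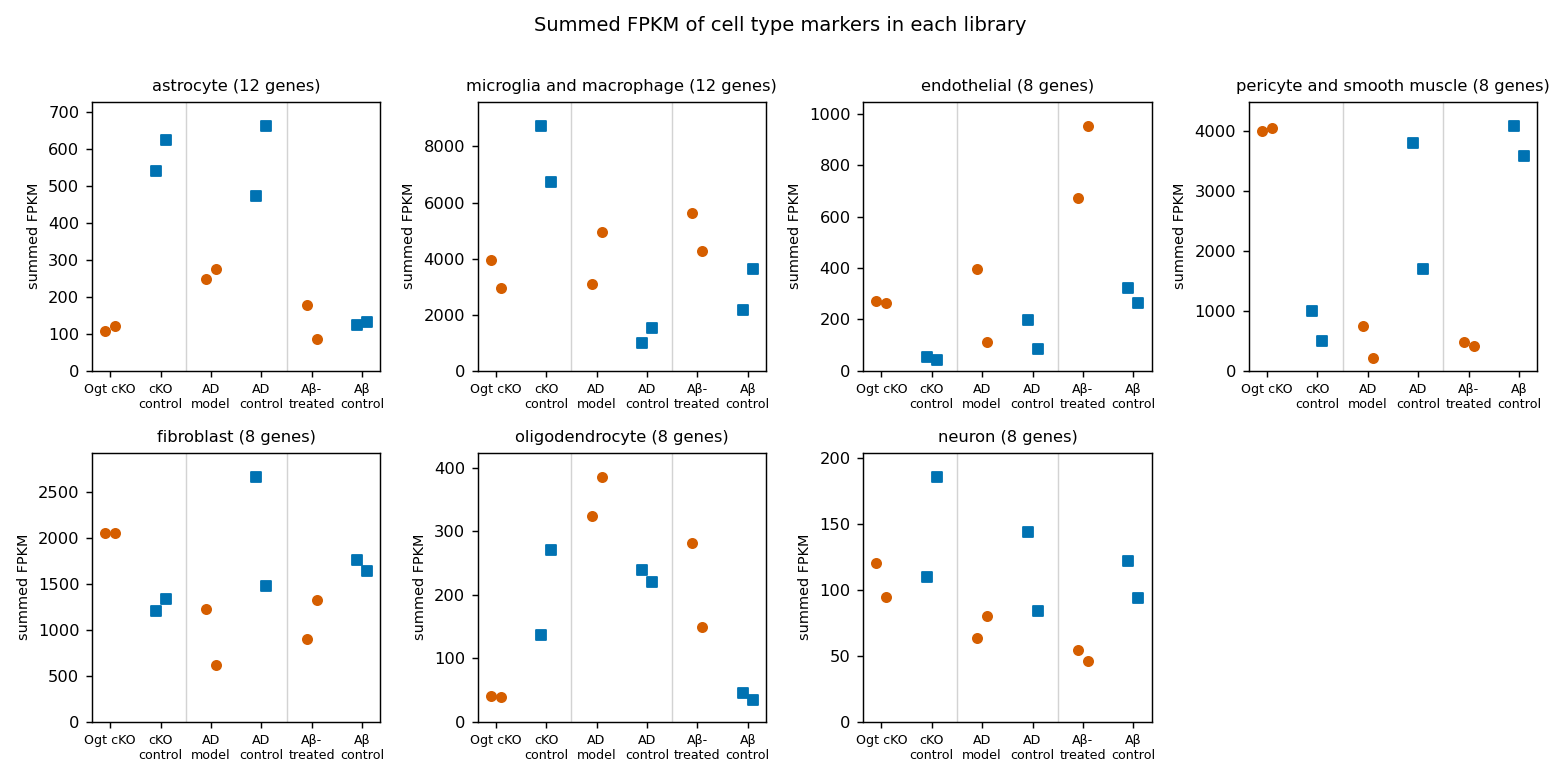
Summed FPKM (y axis, from 0) of marker genes of 7 cell types in each of the 12 libraries, with the 6 groups on the x axis. Circles are Ogt cKO, AD model and Aβ-treated libraries, and squares are their controls. Pericyte and smooth muscle markers summed to 4007 and 4055 FPKM in Ogt cKO libraries, against 1004 and 502 FPKM in their controls, and to 485 and 419 FPKM in Aβ-treated libraries, against 4080 and 3580 FPKM in Aβ controls.

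Cells exposed to Aβ and cells of the AD model shared a rise of the cystine transporter Slc7a11, the glutathione enzymes Gclm and Gsr, catalase and the transaldolase Taldo1, whereas none of these 5 was called higher in the Ogt cKO. Slc7a11 lay above its controls there too, at low values (1.56 and 1.24 against 0.168 and 0.0871 FPKM), without passing the test. That test used a spread shared by all 12 libraries, including AD model libraries that differed widely in this gene. In the Ogt cKO, Nqo1, thioredoxin (Txn1) and the peroxiredoxins Prdx1, Prdx2 and Prdx5 rose, and Gstm1, Mgst1, Cat and Prdx6 fell. Prdx1 rose in all 3 comparisons and Prdx5 also in the AD model. Of the 37 genes, 20 were called higher and 2 lower in the AD model than in its controls at an adjusted p under 0.05, beside 9.8% and 7.27% of all 14014 genes tested. The median log2 change of the 37 genes was 0.74, against -0.02 over all genes tested. With Aβ, 13 of the 37 were higher and 5 lower, beside 20.8% and 15.1% of all genes, and the median change was 0.41, against -0.04 over all genes. In the Ogt cKO 12 were higher and 5 lower, beside 22.6% and 19.8% of all genes, and the median change was 0.24, against -0.0024 over all genes. A call was made in all 3 comparisons for 4 genes (Gstm2, Mgst1, Prdx1 and Cat), in 2 comparisons for 18, in 1 for 9 and in none for 6 (Gclc, Sod1, Sod3, Tkt, Me1 and Osgin1).

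**Figure D2:**
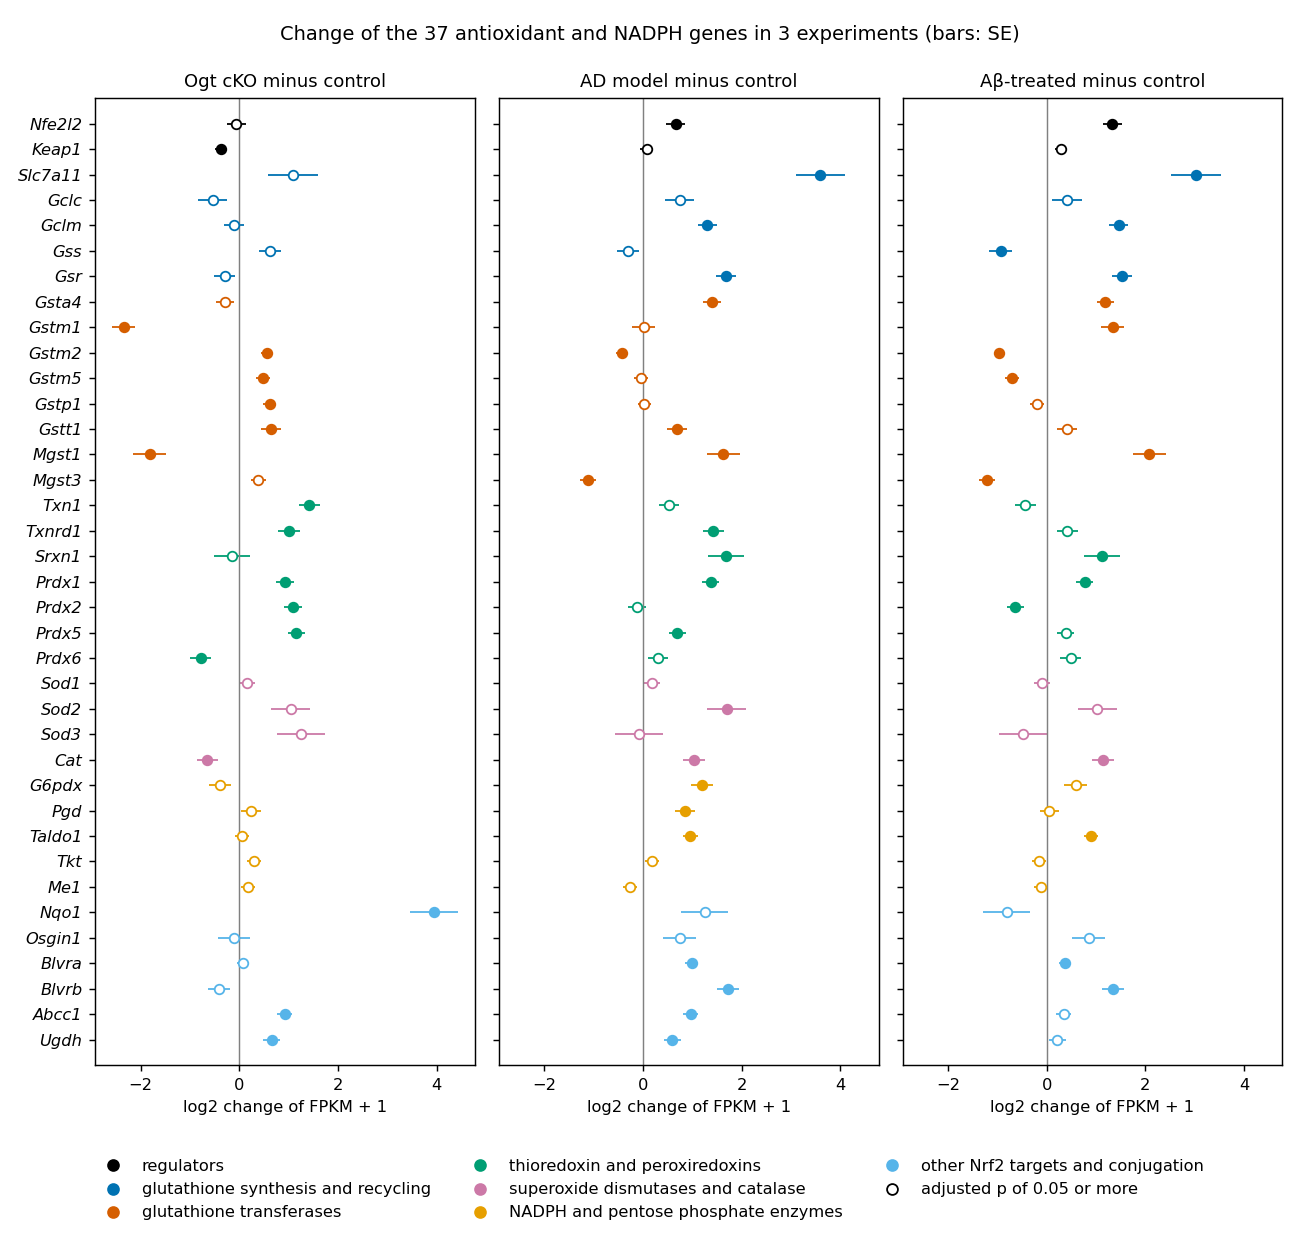
Log2 change of FPKM + 1 (x axis) for each of the 37 genes (rows, coloured by role) in the 3 comparisons, with bars of 1 SE of the limma fit. Filled points have an adjusted p under 0.05: 17 genes for the Ogt cKO, 22 for the AD model and 18 for Aβ.

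These counts rest on few libraries. Leaving out any 1 library also lowered the calls over all genes tested in the Ogt cKO and with Aβ, so such losses are not particular to the 37 genes. In the AD model the calls over all genes rose or fell, depending on the library. Without 1 library in turn, the Ogt cKO calls fell to 8 (without Ogt cKO replicate 1), 11 (without Ogt cKO replicate 2), 10 (without control replicate 1) and 9 (without control replicate 2). The 8 genes called in each of these fits were Abcc1, Gstm1, Mgst1, Nqo1, Prdx1, Prdx2, Prdx5 and Txn1. The 2 AD model libraries differed widely, with a median absolute log2 difference between replicates of 0.46 over the 37 genes, against 0.10 to 0.19 in the other 5 groups. When the AD model and its controls were fitted alone, limma called 0 of the 37, with 20 at an unadjusted p under 0.05 and a lowest adjusted p of 0.0644. In the fit of all 12 libraries, limma-voom on the recovered reads called 19. All AD calls below therefore rest on the spread shared by the 12 libraries. The other 2 comparisons used the same spread, so a gene that varied between AD model replicates had a larger SE in them too. With their own 4 libraries alone, 24 of the 37 genes were called for the Ogt cKO, beside 62.1% of all genes, and 23 for Aβ, beside 41.5%. For the AD model alone, 1.98% of all genes were called.

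Of the pair of regulators, Nfe2l2 mRNA rose with Aβ, and its call in the AD model and that of Keap1 in the Ogt cKO were each lost under several alternatives. Nfe2l2 had 72.7 and 64.4 FPKM in Aβ-treated libraries, against 21.8 and 32.7 FPKM in Aβ controls. It had 66.3 and 86.4 FPKM in AD model libraries, against 47.7 and 46.98 FPKM in AD controls, and 52.3 and 47.6 FPKM in Ogt cKO libraries, against 52.5 and 51.8 FPKM in cKO controls. The log2 changes were 1.33 (SE 0.19, adjusted p = 0.00117) with Aβ, 0.67 (SE 0.19, adjusted p = 0.0464) in the AD model and -0.06 (SE 0.19, adjusted p = 0.817) in the Ogt cKO. The AD call was lost without AD model replicate 2, where the change was 0.48 with an adjusted p of 0.172, and without either control. It was also lost with no filter on low values, under voom and with the length and GC trend removed. Keap1, the adaptor that holds Nrf2 in check, had 12.5 and 13.1 FPKM in Ogt cKO libraries, against 16.2 and 17.4 FPKM in cKO controls, a log2 change of -0.37 (SE 0.13, adjusted p = 0.044). That call ended without any 1 of the 4 libraries, with the change between -0.42 and -0.32 and the adjusted p up to 0.204. Keap1 was not called in the AD model (log2 change 0.07) or with Aβ (0.29).

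Genes of glutathione synthesis and recycling were called higher in 3 of 5 cases in the AD model and 3 of 5 with Aβ, and in 0 of 5 in the Ogt cKO. The shares called higher over all genes tested were 9.8%, 20.8% and 22.6% in the same order. Slc7a11, the subunit of the cystine-glutamate antiporter that brings in cystine for glutathione, had 9.37 and 35.7 FPKM in AD model libraries, against 0.922 and 0.351 FPKM in AD controls. With Aβ it had 13.9 and 7.69 FPKM in Aβ-treated libraries, against 0.272 and 0.538 FPKM in Aβ controls. All 4 amyloid libraries were above 7 FPKM, and all 6 control libraries of the study were under 1 FPKM. The log2 changes were 3.60 (SE 0.50, adjusted p = 0.00168) in the AD model and 3.02 (SE 0.50, adjusted p = 0.00213) with Aβ. Between its replicates the AD model differed most in this gene, and the change was 4.51 without AD model replicate 1 and 2.69 without AD model replicate 2. Slc7a11 in the Ogt cKO had 1.56 and 1.24 FPKM in Ogt cKO libraries, against 0.168 and 0.0871 FPKM in cKO controls, which did not pass the test (log2 change 1.09, SE 0.50, adjusted p = 0.107).

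Gclm, the modifier subunit of glutamate-cysteine ligase, which makes the first step of glutathione synthesis, had 25.8 and 35.8 FPKM in AD model libraries, against 11.001 and 12.4 FPKM in AD controls. It had 39.3 and 28.1 FPKM in Aβ-treated libraries, against 10.5 and 12.5 FPKM in Aβ controls. The groups did not overlap in either experiment, with log2 changes of 1.31 (SE 0.20, adjusted p = 0.00282) and 1.45 (SE 0.20, adjusted p = 0.000891). Its catalytic partner Gclc had 16.6 and 25.2 FPKM in AD model libraries, against 10.4 and 13.5 FPKM in AD controls, and 19.4 and 13.1 FPKM in Aβ-treated libraries, against 9.05 and 15.3 FPKM in Aβ controls. Gclc in the Ogt cKO had 15.5 and 11.3 FPKM in Ogt cKO libraries, against 19.2 and 19.99 FPKM in cKO controls. None of these passed the test, with log2 changes of 0.74 (SE 0.30, adjusted p = 0.129) in the AD model, 0.41 (SE 0.30, adjusted p = 0.306) with Aβ and -0.53 (SE 0.30, adjusted p = 0.169) in the Ogt cKO. Gclm in the Ogt cKO had 15.3 and 13.1 FPKM in Ogt cKO libraries, against 14.6 and 16.2 FPKM in cKO controls (log2 change -0.12, not called).

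Gsr, the reductase that returns oxidised glutathione to its reduced form with NADPH, had 46.3 and 72.5 FPKM in AD model libraries, against 17.4 and 17.3 FPKM in AD controls. It had 49.3 and 39.6 FPKM in Aβ-treated libraries, against 15.3 and 13.99 FPKM in Aβ controls. These were log2 changes of 1.68 (SE 0.21, adjusted p = 0.000852) and 1.53 (SE 0.21, adjusted p = 0.000764), and each amyloid library was above every control library of the study. In the Ogt cKO it had 24.1 and 19.7 FPKM in Ogt cKO libraries, against 27.7 and 26.4 FPKM in cKO controls and was not called (log2 change -0.30, SE 0.21, adjusted p = 0.265). Glutathione synthetase (Gss), which makes the second step of synthesis, went the other way with Aβ, with 8.26 and 6.99 FPKM in Aβ-treated libraries, against 16.8 and 14.2 FPKM in Aβ controls (log2 change -0.94, SE 0.23, adjusted p = 0.013). That call was lost without Aβ-treated replicate 2 or Aβ control replicate 1, where the adjusted p reached 0.0922. Gss had 5.63 and 9.47 FPKM in AD model libraries, against 11.2 and 7.70 FPKM in AD controls, and 14.4 and 13.5 FPKM in Ogt cKO libraries, against 8.42 and 9.02 FPKM in cKO controls, and neither difference passed the test (adjusted p = 0.434 and 0.0556). Exons of Gss overlap those of Acss2 on the other strand, which did not exceed 5.05 FPKM. Whether strand was used in counting is not given in the sources used here.

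**Figure D3:**
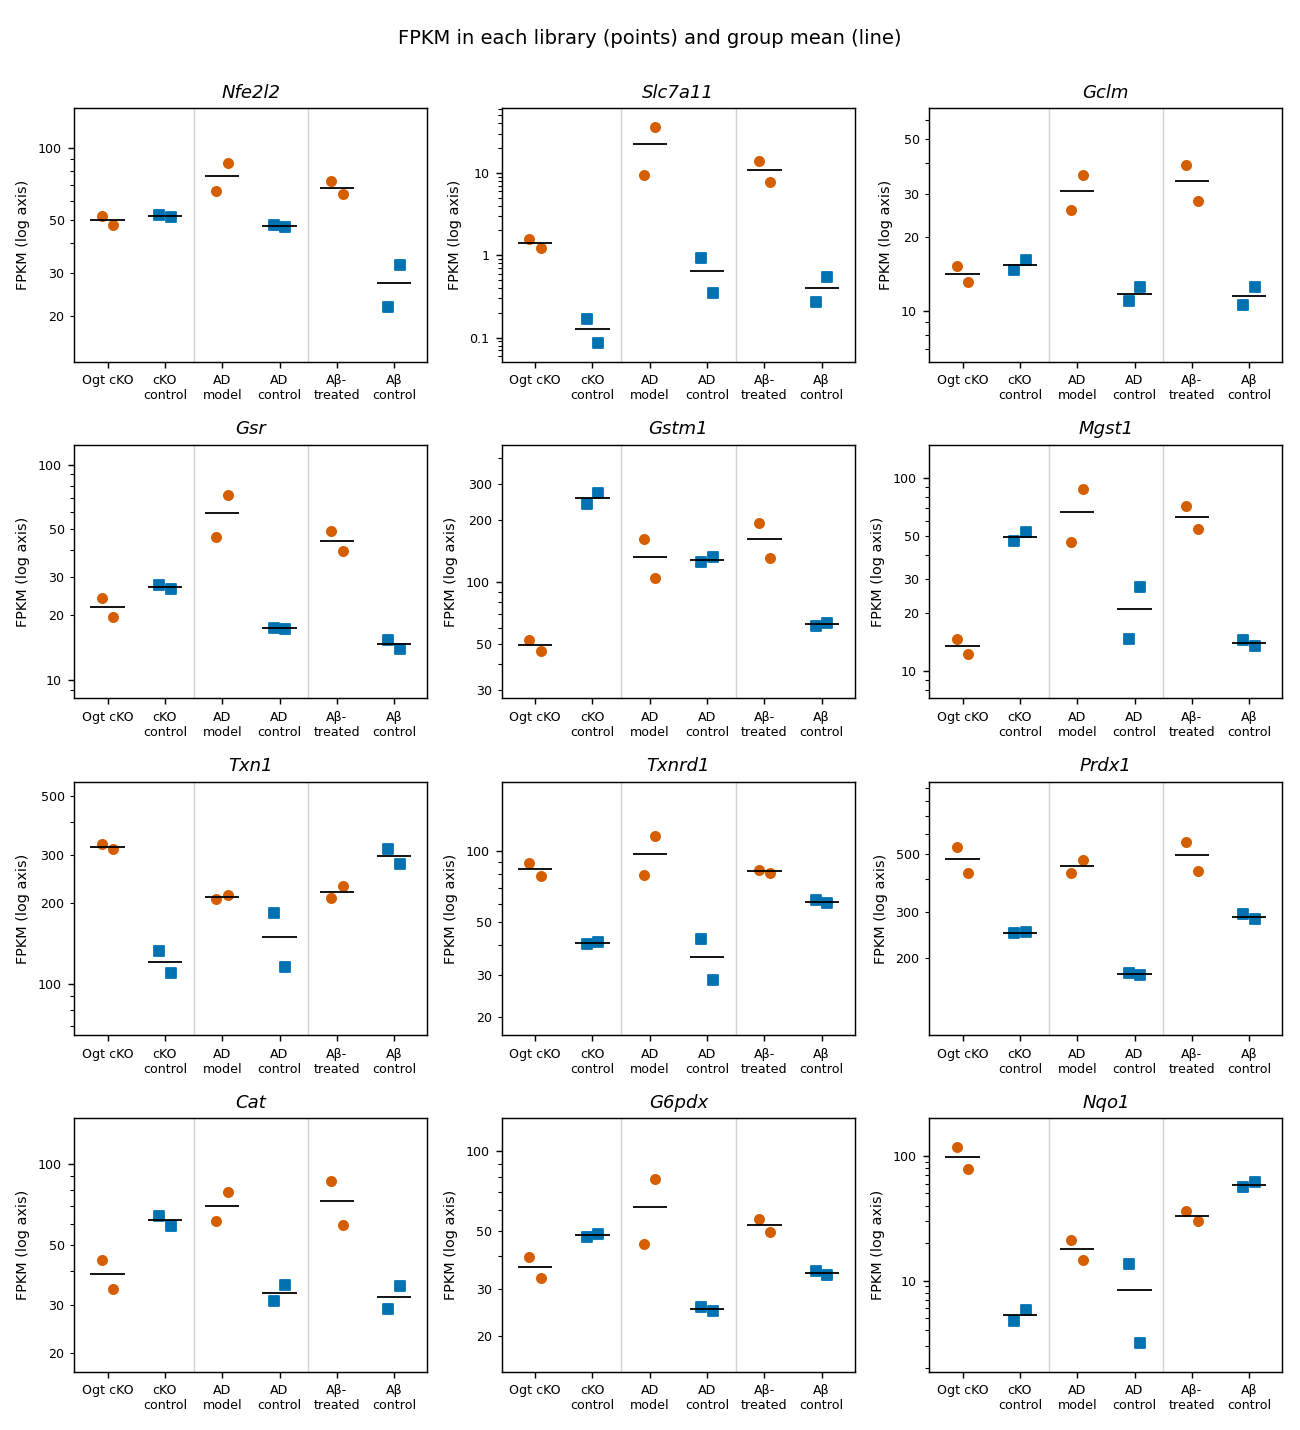
FPKM of 12 of the genes (y axis, log scale) in each library, with the 6 groups on the x axis and a line at each group mean. Slc7a11, Gclm and Gsr lie higher in AD model and Aβ-treated libraries than in their controls, and Nqo1 had 117 and 78.2 FPKM in Ogt cKO libraries, against 4.75 and 5.87 FPKM in cKO controls.

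The antioxidant response element was looked for in front of these genes by its core TGACNNNGC, on both strands, in windows of 250 bases before to 50 after each RefSeq gene start (build GRCm38.p6). Windows were found for 31 of the 37 genes, and those of Gclc, Gsr, Gsta4, Prdx6, Sod3 and Abcc1 were not matched. The core was in a window of 13 of the 31 genes (41.9%), against 13.99% of 27025 genes in the same table, and in 13 of 38 windows (34.2%), against 12.4% of 32851 windows. The 13 were Nfe2l2, Gclm, Gstm5, Mgst1, Txnrd1, Srxn1, Prdx1, Sod1, G6pdx, Pgd, Me1, Blvra and Ugdh. Of these, 2 (Sod1 and Me1) were called in no comparison. The windows of Slc7a11, Gclm, Srxn1 and Mgst1 are shown, 4 genes that rose in both amyloid experiments. Blvrb, which also rose in both, and Gstm1, called in 2 comparisons, had larger absolute changes (1.72 and 2.34) than Srxn1 (1.68) and Gclm (1.45). Their windows hold no match and are not shown, so the 4 are not a sample of the 31 genes. The shown windows are given 5′ to 3′ on the strand of the gene, with the match in capitals. The Slc7a11 window, on the minus strand at chr3:50443564-50443863, holds none. The Gclm window is on the plus strand at chr3:122245307-122245606, that of Srxn1 on the plus strand at chr2:152105274-152105573 and that of Mgst1 on the plus strand at chr6:138140277-138140576. A match is a string of letters and not a measured binding site.
Slc7a11: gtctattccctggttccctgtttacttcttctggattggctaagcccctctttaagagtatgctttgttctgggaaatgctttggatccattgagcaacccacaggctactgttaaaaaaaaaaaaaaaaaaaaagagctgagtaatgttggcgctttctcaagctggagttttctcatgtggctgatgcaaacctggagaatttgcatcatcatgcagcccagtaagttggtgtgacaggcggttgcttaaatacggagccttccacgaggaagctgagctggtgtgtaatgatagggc
Gclm: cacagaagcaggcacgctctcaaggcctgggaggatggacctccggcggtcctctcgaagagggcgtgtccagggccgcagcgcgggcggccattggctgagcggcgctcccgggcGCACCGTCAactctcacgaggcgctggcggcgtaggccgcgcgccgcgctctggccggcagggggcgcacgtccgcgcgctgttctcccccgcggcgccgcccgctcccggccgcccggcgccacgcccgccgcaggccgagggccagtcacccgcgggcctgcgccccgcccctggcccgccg
Srxn1: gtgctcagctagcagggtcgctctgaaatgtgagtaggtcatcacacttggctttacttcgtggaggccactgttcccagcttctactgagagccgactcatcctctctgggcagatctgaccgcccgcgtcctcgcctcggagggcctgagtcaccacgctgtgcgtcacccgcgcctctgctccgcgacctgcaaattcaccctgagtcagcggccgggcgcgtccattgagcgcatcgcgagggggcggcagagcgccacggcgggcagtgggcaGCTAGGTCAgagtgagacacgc
Mgst1: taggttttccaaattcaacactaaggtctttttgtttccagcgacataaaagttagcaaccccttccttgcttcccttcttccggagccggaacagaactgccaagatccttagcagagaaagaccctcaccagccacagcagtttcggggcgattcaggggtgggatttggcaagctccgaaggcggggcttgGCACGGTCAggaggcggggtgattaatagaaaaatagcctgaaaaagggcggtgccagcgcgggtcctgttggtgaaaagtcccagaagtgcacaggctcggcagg
All 3 matches lie on the opposite strand, as GCNNNGTCA. They begin 134 bases before the start of Gclm, 56 bases before that of Mgst1 and 28 bases after that of Srxn1. A second Mgst1 window, at another start of the gene, holds no match.

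The glutathione transferases, which join glutathione to electrophiles, included calls in both directions within each experiment. Of the 8 genes, the Ogt cKO had 4 higher and 2 lower, the AD model 3 higher and 2 lower, and Aβ 3 higher and 3 lower. Over all genes tested, the shares called higher and lower were 22.6% and 19.8% in the Ogt cKO, 9.8% and 7.27% in the AD model, and 20.8% and 15.1% with Aβ. Gstm1, a mu-class enzyme found in astrocytes, had 52.3 and 46.6 FPKM in Ogt cKO libraries, against 238 and 271 FPKM in cKO controls. It fell in the Ogt cKO by 2.34 on the log2 scale (SE 0.23, adjusted p = 0.000667). Gstm1 with Aβ had 194 and 131 FPKM in Aβ-treated libraries, against 61.2 and 63.6 FPKM in Aβ controls, a rise of 1.34 (SE 0.23, adjusted p = 0.00265). In the AD model the libraries overlapped, with 161 and 105 FPKM in AD model libraries, against 125 and 132 FPKM in AD controls (log2 change 0.02, SE 0.23, adjusted p = 0.977).

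The microsomal transferase Mgst1, a membrane enzyme with peroxidase activity, followed the same opposed course. It had 14.7 and 12.3 FPKM in Ogt cKO libraries, against 47.1 and 52.6 FPKM in cKO controls. In the amyloid experiments it had 71.9 and 54.6 FPKM in Aβ-treated libraries, against 14.5 and 13.6 FPKM in Aβ controls, and 46.99 and 87.7 FPKM in AD model libraries, against 14.6 and 27.4 FPKM in AD controls. The log2 changes were -1.82 (SE 0.33, adjusted p = 0.00452) in the Ogt cKO, 2.08 (SE 0.33, adjusted p = 0.00168) with Aβ and 1.63 (SE 0.33, adjusted p = 0.00985) in the AD model. The change in the AD model was 1.19 without AD model replicate 2 and 1.20 without AD control replicate 1, and 2.07 and 2.06 without the other library of the group. Mgst3, another microsomal transferase, ran opposite to Mgst1, with 6.39 and 7.71 FPKM in AD model libraries, against 14.5 and 18.5 FPKM in AD controls, and 11.3 and 10.9 FPKM in Aβ-treated libraries, against 27.2 and 26.9 FPKM in Aβ controls. These were log2 changes of -1.11 (SE 0.16, adjusted p = 0.0017) and -1.21 (SE 0.16, adjusted p = 0.000602). Mgst3 in the Ogt cKO had 21.6 and 20.7 FPKM in Ogt cKO libraries, against 17.996 and 14.2 FPKM in cKO controls and was not called (adjusted p = 0.0736).

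Gsta4, which conjugates the lipid peroxidation product 4-hydroxynonenal, had 35.1 and 25.99 FPKM in AD model libraries, against 10.7 and 11.02 FPKM in AD controls, and 33.2 and 27.3 FPKM in Aβ-treated libraries, against 11.4 and 14.01 FPKM in Aβ controls. It rose in both, by log2 changes of 1.40 (SE 0.18, adjusted p = 0.00111) and 1.19 (SE 0.18, adjusted p = 0.00136). Gsta4 in the Ogt cKO had 15.6 and 12.4 FPKM in Ogt cKO libraries, against 17.3 and 17.2 FPKM in cKO controls (log2 change -0.29, not called). The other 4 cytosolic transferases were Gstm2, Gstm5, Gstp1 and Gstt1, which had smaller changes and ranged over 12.5 to 38.1 FPKM, 23.7 to 46.1 FPKM, 84.5 to 148 FPKM and 3.93 to 9.18 FPKM across the 12 libraries. All 4 were called higher in the Ogt cKO, by log2 changes of 0.48 to 0.65, and none of these 4 calls held without each library. Gstm5 and Gstt1 lost theirs without any 1 of the 4 libraries, Gstm2 without Ogt cKO replicate 1 or control replicate 2, and Gstp1 without Ogt cKO replicate 1 or control replicate 1, with adjusted p up to 0.15. Gstm2 was called lower with Aβ (log2 change -0.96) and in the AD model (-0.43), Gstm5 was called lower with Aβ (-0.71), and Gstt1 was called higher in the AD model (0.70). The AD calls of Gstm2 and Gstt1 ended without either AD control, and without AD model replicate 2 for Gstm2 and replicate 1 for Gstt1, with adjusted p up to 0.103 and 0.207. When libraries were rescaled to their total reads, which moved the median of all genes by -0.19 in the Ogt cKO, the calls of Gstm2, Gstm5 and Gstt1 there were lost. The mu-class genes are similar in sequence, and how reads shared between them were counted is not given in the sources used here.

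Of the 7 genes of thioredoxin and its peroxidases, 5 were called higher and 1 lower in the Ogt cKO. In the AD model 4 were higher, and with Aβ 2 were higher and 1 lower. Rises thus made up 71.4%, 57.1% and 28.6% of the list for the Ogt cKO, the AD model and Aβ. Among all genes tested, rises made up 22.6%, 9.8% and 20.8%, and falls 19.8%, 7.27% and 15.1%, in that order. The single falls in the Ogt cKO and with Aβ are each 14.3% of the list. Both counts with Aβ and the fall in the Ogt cKO are therefore near the background shares. Txn1, the small protein that reduces disulfides and feeds the peroxiredoxins, had 331 and 316 FPKM in Ogt cKO libraries, against 132 and 110.01 FPKM in cKO controls. Its log2 change was 1.42 (SE 0.21, adjusted p = 0.00235). It was not called in the AD model, with 208 and 214 FPKM in AD model libraries, against 183 and 116 FPKM in AD controls (adjusted p = 0.13). Txn1 with Aβ had 209 and 232 FPKM in Aβ-treated libraries, against 316 and 279 FPKM in Aβ controls and was not called either (log2 change -0.43, SE 0.21, adjusted p = 0.137).

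Txnrd1, the cytosolic reductase that recharges thioredoxin with NADPH, had 89.1 and 78.4 FPKM in Ogt cKO libraries, against 40.6 and 41.3 FPKM in cKO controls, and 79.1 and 115 FPKM in AD model libraries, against 42.8 and 28.5 FPKM in AD controls. It rose in both, by log2 changes of 1.01 (SE 0.22, adjusted p = 0.00772) and 1.43 (SE 0.22, adjusted p = 0.00251). The call in the Ogt cKO was lost without Ogt cKO replicate 1 or control replicate 2 (adjusted p up to 0.0582). Txnrd1 with Aβ had 83.3 and 80.9 FPKM in Aβ-treated libraries, against 62.1 and 60.5 FPKM in Aβ controls and did not pass the test (log2 change 0.42, SE 0.22, adjusted p = 0.158). Prdx1, a cytosolic peroxidase that thioredoxin recharges, rose in all 3 comparisons. It had 532 and 424 FPKM in Ogt cKO libraries, against 249 and 251 FPKM in cKO controls. In the amyloid experiments it had 423 and 477 FPKM in AD model libraries, against 174 and 171 FPKM in AD controls, and 558 and 432 FPKM in Aβ-treated libraries, against 294 and 281 FPKM in Aβ controls. The log2 changes were 0.92 (SE 0.18, adjusted p = 0.00517) in the Ogt cKO, 1.37 (SE 0.18, adjusted p = 0.00108) in the AD model and 0.77 (SE 0.18, adjusted p = 0.00926) with Aβ, where the call was lost without Aβ-treated replicate 1 (adjusted p = 0.079) and with the length and GC trend removed. Quantile normalization ended the call in the Ogt cKO.

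Srxn1 encodes sulfiredoxin, which repairs overoxidised peroxiredoxins. It had 55.1 and 145 FPKM in AD model libraries, against 25.6 and 28.9 FPKM in AD controls, and 81.8 and 64.4 FPKM in Aβ-treated libraries, against 34.3 and 31.8 FPKM in Aβ controls. Replicate 2 of the AD model stood well above replicate 1. The log2 change in the AD model was 1.68 (SE 0.37, adjusted p = 0.0136), and it was 0.99 without replicate 2 and 2.38 without replicate 1 of the AD model. That call was lost without AD control replicate 1 (1.5998, adjusted p = 0.0544). With Aβ the log2 change was 1.11 (SE 0.37, adjusted p = 0.0417), a call that ended without any 1 of the 4 libraries (adjusted p up to 0.193). Srxn1 in the Ogt cKO had 51.3 and 41.2 FPKM in Ogt cKO libraries, against 46.9 and 54.96 FPKM in cKO controls, with overlapping groups (log2 change -0.14).

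The other peroxiredoxins differed from each other. Prdx2, a cytosolic enzyme, and Prdx5, found in mitochondria, peroxisomes and cytosol, were called higher in the Ogt cKO by 1.09 and 1.16 on the log2 scale, and both calls held without each library. Prdx6, which uses glutathione in place of thioredoxin, was called lower there (-0.78), a call that ended without any 1 library (adjusted p up to 0.107). With Aβ, Prdx2 was called lower (-0.63, also lost without any 1 library, adjusted p up to 0.131), and in the AD model Prdx5 was called higher (0.70, lost without AD model replicate 2 or AD control replicate 2, adjusted p up to 0.0752). Their levels across the 12 libraries were 75.9 to 184 FPKM for Prdx2, 83.5 to 230 FPKM for Prdx5 and 56.3 to 133 FPKM for Prdx6. Exons of Prdx2 overlap those of Junb on the other strand, which reached 208 FPKM, and exons of Prdx5 overlap those of Trmt112, which reached 33.2 FPKM.

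Among the enzymes that remove superoxide and hydrogen peroxide, catalase moved in opposite directions in the 2 kinds of experiment. Cat, the peroxisomal enzyme that splits hydrogen peroxide, had 61.2 and 78.5 FPKM in AD model libraries, against 31.03 and 35.7 FPKM in AD controls, and 86.6 and 59.4 FPKM in Aβ-treated libraries, against 28.9 and 35.3 FPKM in Aβ controls. It rose in both, by log2 changes of 1.04 (SE 0.22, adjusted p = 0.0113) and 1.14 (SE 0.22, adjusted p = 0.00386). Without AD model replicate 2 the first of these calls was lost (0.86, adjusted p = 0.0508). Cat fell in the Ogt cKO, with 43.9 and 34.5 FPKM in Ogt cKO libraries, against 64.3 and 59.1 FPKM in cKO controls (log2 change -0.65, SE 0.22, adjusted p = 0.0386), and that call ended without any 1 of the 4 libraries (adjusted p up to 0.209). The change of Cat in the AD model and with Aβ exceeded that in the Ogt cKO by 1.69 and 1.79 (adjusted p = 0.00619 and 0.00179). Sod2, the manganese superoxide dismutase of mitochondria, had 12.6 and 40.1 FPKM in AD model libraries, against 6.13 and 6.50 FPKM in AD controls. The second AD model library was more than 3 times the first, and the log2 change of 1.69 (SE 0.40, adjusted p = 0.0188) became 0.90 without AD model replicate 2 and 2.49 without AD model replicate 1, with the call lost without either AD control (adjusted p up to 0.0634). Sod2 had 17.4 and 15.97 FPKM in Ogt cKO libraries, against 7.37 and 7.75 FPKM in cKO controls, and 18.4 and 15.3 FPKM in Aβ-treated libraries, against 7.97 and 7.50 FPKM in Aβ controls. The groups were apart in both, but neither log2 change passed the test, at 1.05 (SE 0.40, adjusted p = 0.0594) and 1.03 (SE 0.40, adjusted p = 0.0714). This SE is shared by all 12 libraries and so includes the spread between the AD model replicates. Sod1, the cytosolic copper and zinc enzyme, stayed between 35.7 and 59.4 FPKM and Sod3, the secreted enzyme, between 12.2 and 40.5 FPKM, and neither was called in any comparison.

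Of the 5 genes of the pentose phosphate pathway and NADPH supply, 3 were called higher in the AD model, Taldo1 alone with Aβ and none in the Ogt cKO. In the Ogt cKO their log2 changes lay between -0.39 and 0.30. Over all genes tested, 9.8% were called higher in the AD model, 20.8% with Aβ and 22.6% in the Ogt cKO. Taldo1 alone is 20% of the 5 genes, so the count with Aβ is near the share of all genes. G6pdx, the X-linked dehydrogenase that sets the flow into the pathway, had 44.4 and 78.5 FPKM in AD model libraries, against 25.8 and 24.8 FPKM in AD controls, a log2 change of 1.19 (SE 0.23, adjusted p = 0.00728). It was 0.79 without AD model replicate 2 and 1.598 without AD model replicate 1. With Aβ G6pdx had 55.3 and 49.6 FPKM in Aβ-treated libraries, against 35.3 and 33.96 FPKM in Aβ controls, which did not pass the test (log2 change 0.58, SE 0.23, adjusted p = 0.0726), and it had 39.7 and 33.2 FPKM in Ogt cKO libraries, against 47.2 and 48.8 FPKM in cKO controls (log2 change -0.39, SE 0.23, adjusted p = 0.182). Exons of G6pdx overlap those of Ikbkg, which did not exceed 11.1 FPKM. Pgd, which makes the second NADPH of the pathway, had 45.3 and 73.2 FPKM in AD model libraries, against 31.7 and 31.2 FPKM in AD controls. Its log2 change of 0.85 (SE 0.20, adjusted p = 0.0194) was 0.51 without AD model replicate 2 and 1.19 without AD model replicate 1, and the call was lost without either AD control (adjusted p up to 0.0616). Pgd was not called with Aβ, with 63.03 and 54.6 FPKM in Aβ-treated libraries, against 56.2 and 56.7 FPKM in Aβ controls (log2 change 0.05), and it had 70.9 and 61.3 FPKM in Ogt cKO libraries, against 56.5 and 55.2 FPKM in cKO controls (0.24).

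Taldo1, the transaldolase of the non-oxidative branch, had 277 and 263 FPKM in Aβ-treated libraries, against 151 and 138 FPKM in Aβ controls, and 148 and 181 FPKM in AD model libraries, against 89.4 and 78.2 FPKM in AD controls. The groups lay apart in both experiments, with log2 changes of 0.90 (SE 0.15, adjusted p = 0.00212) and 0.96 (SE 0.15, adjusted p = 0.0029). Taldo1 in the Ogt cKO had 138 and 120.001 FPKM in Ogt cKO libraries, against 125 and 123 FPKM in cKO controls (log2 change 0.05, not called). Transketolase (Tkt) ranged from 23.5 to 43.3 FPKM and the malic enzyme Me1, a further NADPH source, from 24.1 to 38.3 FPKM, and neither was called in any comparison.

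Nqo1, the quinone reductase used widely as a readout of Nrf2, had the largest change of the 37 genes on the log2(FPKM + 1) scale. As a ratio of mean FPKM, Slc7a11 changed more, 35.4-fold in the AD model and 26.6-fold with Aβ, against 18.4-fold for Nqo1 in the Ogt cKO. It had 117 and 78.2 FPKM in Ogt cKO libraries, against 4.75 and 5.87 FPKM in cKO controls. Both Ogt cKO libraries were more than 10 times both controls, and the log2 change was 3.94 (SE 0.48, adjusted p = 0.00127). It was not called in the AD model, with 21.1 and 14.6 FPKM in AD model libraries, against 13.7 and 3.18 FPKM in AD controls (log2 change 1.25, SE 0.48, adjusted p = 0.119). With Aβ the direction was the other way but not past the threshold, with 36.2 and 29.9 FPKM in Aβ-treated libraries, against 56.02 and 61.2 FPKM in Aβ controls (log2 change -0.81, SE 0.48, adjusted p = 0.214). The level in Aβ controls was thus nearer to that of the Ogt cKO than to that of the other controls.

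Blvrb and Blvra encode the biliverdin reductases, which act after heme oxygenase. Blvrb had 22.9 and 34.6 FPKM in AD model libraries, against 7.36 and 8.42 FPKM in AD controls, and 45.5 and 31.8 FPKM in Aβ-treated libraries, against 14.3 and 14.5 FPKM in Aβ controls. It rose in both, by log2 changes of 1.72 (SE 0.22, adjusted p = 0.00119) and 1.34 (SE 0.22, adjusted p = 0.00215). Blvrb in the Ogt cKO had 19.7 and 16.2 FPKM in Ogt cKO libraries, against 25.9 and 22.03 FPKM in cKO controls and was not called (adjusted p = 0.171). Blvra had 11.8 and 11.8 FPKM in AD model libraries, against 5.69 and 5.26 FPKM in AD controls, a log2 change of 0.99 (SE 0.13, adjusted p = 0.0011). With Aβ it had 15.7 and 13.9 FPKM in Aβ-treated libraries, against 11.3 and 11.2 FPKM in Aβ controls, a smaller change of 0.37 (SE 0.13, adjusted p = 0.0498) that ended as a call with a pseudocount of 0.1, with no filter, under quantile normalization and without any 1 of the 4 libraries (adjusted p up to 0.241). Abcc1, a pump that exports glutathione conjugates, had 11.1 and 9.90 FPKM in AD model libraries, against 5.70 and 4.12 FPKM in AD controls, and 12.7 and 10.7 FPKM in Ogt cKO libraries, against 5.93 and 5.45 FPKM in cKO controls. These were log2 changes of 0.97 (SE 0.15, adjusted p = 0.00326) and 0.92 (SE 0.15, adjusted p = 0.00349). Abcc1 with Aβ had 10.1 and 11.5 FPKM in Aβ-treated libraries, against 8.48 and 8.13 FPKM in Aβ controls (log2 change 0.34, SE 0.15, adjusted p = 0.115). Ugdh, which makes the sugar used for glucuronidation, ranged from 8.09 to 18.3 FPKM and was called higher in the Ogt cKO (0.65) and the AD model (0.59), and each call was lost without at least 3 of its 4 libraries in turn (adjusted p up to 0.0978 and 0.19). Osgin1, a further Nrf2 target, ranged from 1.58 to 10.3 FPKM and was not called.

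The 3 experiments share no library, so their changes were compared directly. Of the 20 genes higher in the AD model, 12 were also higher with Aβ, which is 60% of those called higher in the AD model and 92.3% of the 13 called higher with Aβ. Mgst3 and Gstm2 were lower in both, and none of the 37 was called in opposite directions. The overlap of calls over all genes tested was not counted, so this sharing is not shown to be particular to the 37 genes. Across the 37 genes the 2 sets of log2 changes had a Pearson's r of 0.81 and a Spearman's rho of 0.75, a description over genes that come from the same libraries and are not independent. In a contrast of the 2 changes, limma called 0 of the 37 as differing between the AD model and Aβ, with 11 at an unadjusted p under 0.05, while 6.14% of all genes were called. The lowest adjusted p was that of Gstm1 (log2 difference -1.32, SE 0.33, adjusted p = 0.0505). Voom on the recovered reads called 1 gene, Gstm1. Without AD model replicate 1 the count was 6 (G6pdx, Gstm1, Pgd, Sod2, Srxn1 and Txnrd1), and without AD control replicate 1 it was 4 (Abcc1, Nqo1, Txn1 and Txnrd1), so the count of 0 depends on these libraries.

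The Ogt cKO differed from both. Of the 12 genes called higher in it, 6 were also called higher in the AD model (Gstt1, Txnrd1, Prdx1, Prdx5, Abcc1 and Ugdh), which is 30% of the 20 AD calls and 50% of the 12. Prdx1 alone was also called higher with Aβ, 7.69% of the 13 calls with Aβ and 8.33% of the 12. Mgst1 and Cat were called higher, and Gstm2 lower, in the AD model and the reverse in the Ogt cKO. Gstm1, Mgst1 and Cat were called higher with Aβ and lower in the Ogt cKO, and Gstm2, Gstm5 and Prdx2 were called lower with Aβ and higher in the Ogt cKO. Such shared and opposite calls were not counted over all genes tested either. Pearson's r between the changes over the 37 genes was 0.03 for the AD model and the Ogt cKO and -0.47 for Aβ and the Ogt cKO, also as descriptions. The difference between the AD change and the Ogt cKO change was called for 17 of the 37 genes, 13 of them with the higher change in the AD model, beside 25.6% of all genes. That between the Aβ change and the Ogt cKO change was called for 23 genes, 13 with the higher change with Aβ and 10 with the lower, beside 52.3% of all genes. Nqo1 had the lowest log2 difference in both, -2.70 (SE 0.68, adjusted p = 0.0228) for the AD model minus the Ogt cKO and -4.76 (SE 0.68, adjusted p = 0.000875) for Aβ minus the Ogt cKO. Mgst1 had the highest in both, 3.45 (SE 0.47, adjusted p = 0.0018) and 3.90 (SE 0.47, adjusted p = 0.000399).

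**Figure D4:**
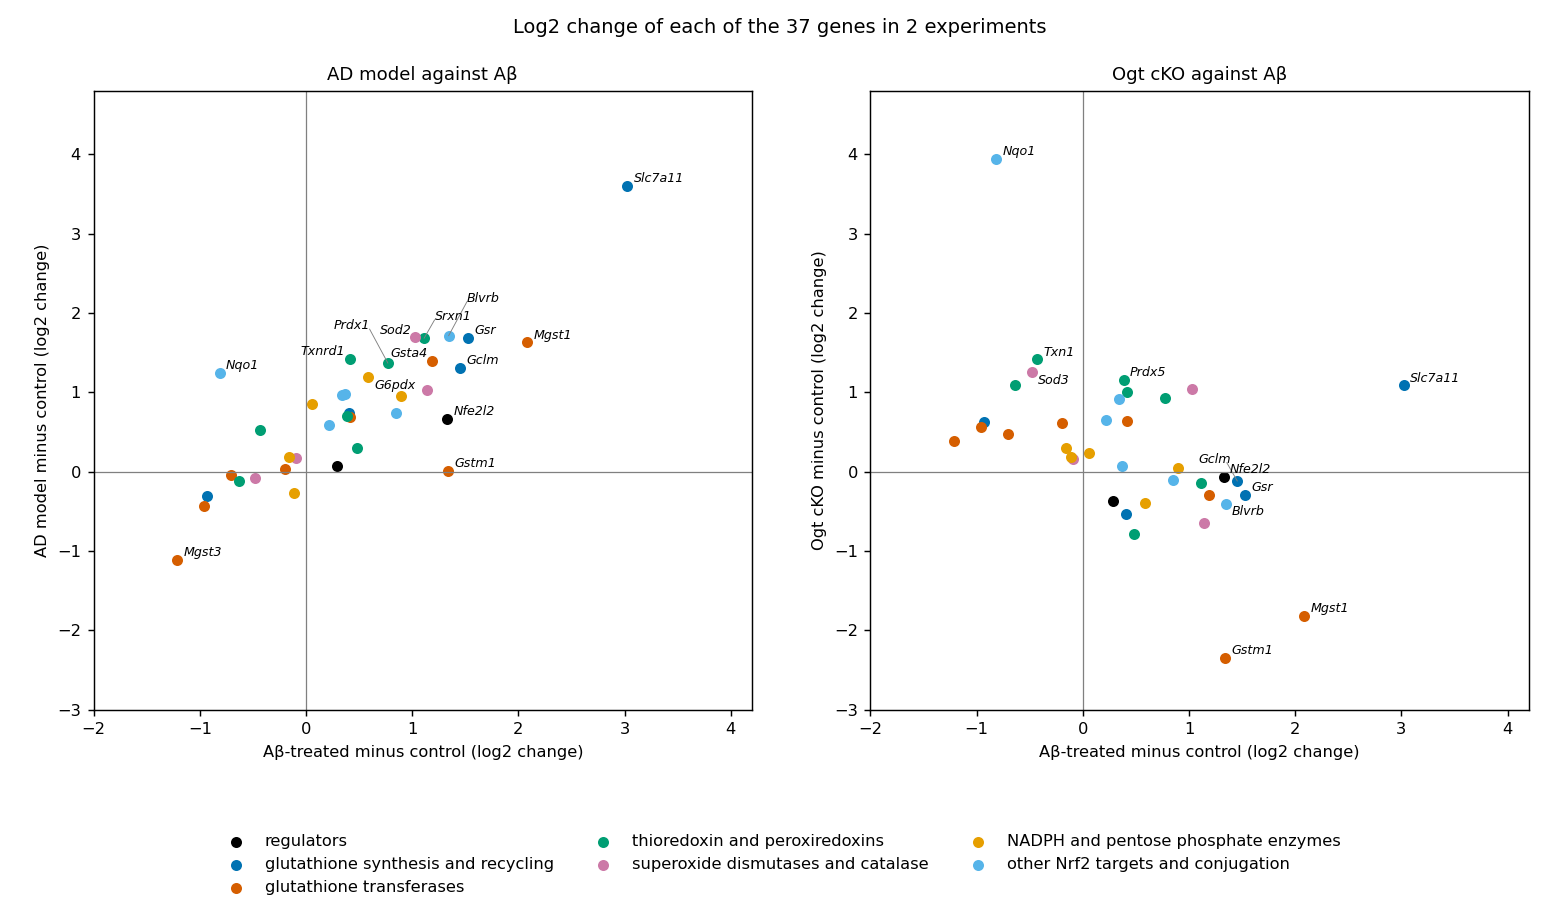
Log2 change of each of the 37 genes (points, coloured by role) in the AD model (left, y axis) and the Ogt cKO (right, y axis) against the change with Aβ (x axis), with the genes of larger change named. Slc7a11, Mgst1, Gsr and Gclm lie high on both axes at the left, and Mgst1 (-1.82) and Gstm1 (-2.34) fell in the Ogt cKO but rose with Aβ.

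Levels also differed between the 3 control groups. The highest control mean was at least 2 times the lowest for 11 of the 37 genes, with a median ratio of 1.80. Nqo1 had the largest ratio, 11.04, with a mean of 5.31 FPKM in cKO controls, 8.43 FPKM in AD controls and 58.6 FPKM in Aβ controls. Gstm1 averaged 254 FPKM in cKO controls, 128 FPKM in AD controls and 62.4 FPKM in Aβ controls. For 30 of the 37 genes the Ogt cKO mean was nearer, on the log2 scale, to the mean of the Aβ controls than to that of its own controls, with median absolute distances of 0.19 and 0.56. Mgst1 is an example, with 13.5 FPKM in the Ogt cKO, 14.04 FPKM in Aβ controls and 49.9 FPKM in cKO controls. The counts of 11 and 30 were not made over all genes tested, so neither is shown to be particular to the 37 genes. The mice differed in age between the experiments, and age and experiment cannot be told apart.

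Markers of other cell types moved with the comparisons, and their part in the changes above was not tested. Beside the marker counts below, 22.6% of all genes tested were called higher and 19.8% lower in the Ogt cKO. These shares were 9.8% and 7.27% in the AD model and 20.8% and 15.1% with Aβ. The 12 astrocyte markers summed to 107 and 122 FPKM in the Ogt cKO, against 541 and 624 FPKM in cKO controls, with 0 called higher and 8 called lower of 11 tested. They summed to 247 and 275 FPKM in the AD model, against 472 and 660 FPKM in AD controls, with 0 higher and 3 lower (Slc1a3, Aldoc and Atp1b2), and to 179 and 86.7 FPKM with Aβ, against 125 and 133 FPKM in Aβ controls, with 2 higher and 1 lower. The astrocyte sums were thus below those of the controls in the Ogt cKO and the AD model and overlapped with Aβ.

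The microglia and macrophage markers summed to 3938 and 2962 FPKM in the Ogt cKO, against 8720 and 6743 FPKM in cKO controls, with 0 of 12 called higher and 5 lower. In the AD model they summed to 3081 and 4960 FPKM, against 1003 and 1515 FPKM in AD controls, with 8 higher and 0 lower. With Aβ they summed to 5636 and 4278 FPKM, against 2182 and 3632 FPKM in Aβ controls, with 4 higher (Aif1, Trem2, Ptprc and Itgam) and 2 lower. Most of these sums was Lyz2, and markers of resting microglia did not move together. Tmem119 and Cx3cr1 were called lower with Aβ (log2 changes -1.85 and -2.17), and their changes in the AD model, -1.31 and -1.62, did not pass the test. P2ry12 went the other way at low values, with 1.69 and 0.858 FPKM in Aβ-treated libraries, against 0.441 and 0.430 FPKM in Aβ controls. It was not called with Aβ (log2 change 0.64) or in the AD model (0.22).

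Endothelial markers summed to 271 and 262 FPKM in the Ogt cKO, against 51.9 and 42.2 FPKM in cKO controls (6 of 8 higher), and to 671 and 951 FPKM with Aβ, against 322 and 263 FPKM in Aβ controls (5 of 8 higher), and 0 of 8 were called in the AD model. Oligodendrocyte markers summed to 40.4 and 38.3 FPKM in the Ogt cKO, against 137 and 271 FPKM in cKO controls, with 5 of 8 lower. They summed to 324 and 385 FPKM in the AD model, against 239 and 220 FPKM in AD controls, with 5 of 8 higher but Olig1 (-2.34) and Olig2 (-2.03) lower, and to 282 and 149 FPKM with Aβ, against 46.04 and 34.1 FPKM in Aβ controls, with 6 of 8 higher. Of 7 tested fibroblast markers, 1 was higher in the Ogt cKO, 4 were lower in the AD model, and with Aβ 3 were lower and Dcn was higher (3.61). Dpt of the same list was at 0 in 6 libraries. Of 4 tested neuronal markers, 1 was higher and 1 lower in the Ogt cKO, 1 was lower in the AD model, and 1 was higher and 2 were lower with Aβ. The pericyte and smooth muscle markers were called lower in 5 of 7 in the AD model and 6 of 7 with Aβ, and higher in 4 of 7 in the Ogt cKO.

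Genes that control Nrf2 or share its pathway but are outside the 37 were also tested. Of 8 tested partners and regulators, the Ogt cKO had 2 higher and 1 lower, 0 changed in the AD model, and 3 were higher and 1 lower with Aβ. In the Ogt cKO these are 25% and 12.5% of the list, beside 22.6% and 19.8% of all genes, and with Aβ 37.5% and 12.5%, beside 20.8% and 15.1%. Those in the Ogt cKO are near the shares of all genes. Maff, a small Maf protein that pairs with Nrf2, had a mean of 110 FPKM in the Ogt cKO, against 7.59 FPKM in controls (log2 change 3.72, adjusted p = 0.00114). Mafk, another small Maf, rose by 1.05. Bach1, a repressor that competes with Nrf2 for its sites, fell in the Ogt cKO (-0.83) and rose with Aβ (1.20). Cul3, the ubiquitin ligase that works with Keap1, rose with Aβ (1.68), as did Sqstm1, which sequesters Keap1 (0.56).

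Of 16 tested Nrf2 targets outside the 37, 5 were higher in the AD model, 4 higher with Aβ, and 4 higher and 4 lower in the Ogt cKO. The 5 are 31.2% of the list, beside 9.8% of all genes higher in the AD model. The shares of 25% with Aβ and in the Ogt cKO were near those of all genes. These were 20.8% higher with Aβ, and 22.6% higher and 19.8% lower in the Ogt cKO. Hmox1, the inducible heme oxygenase, averaged 706 ± 134 FPKM in the AD model and 182 ± 68.95 FPKM in AD controls (SD, n = 2 each), a log2 change of 1.99. With Aβ it averaged 1003 ± 57.4 FPKM, against 409 ± 12.2 FPKM in Aβ controls (SD, n = 2 each), a log2 change of 1.29. Hmox1 in the Ogt cKO had 499.8 and 395 FPKM in Ogt cKO libraries, against 447 and 407 FPKM in cKO controls (log2 change 0.06, SE 0.26, adjusted p = 0.866). Fth1, the ferritin heavy chain that stores iron, rose by 2.09 in the AD model and 1.92 with Aβ. The conjugate pumps Abcc3 (1.67 in the AD model) and Abcc4 (1.26 with Aβ) also rose. Trim16 (2.61) and the aldo-keto reductase Akr1b8 (2.31) rose in the Ogt cKO. Txnip, the inhibitor of thioredoxin, fell there, with a mean of 38.3 FPKM in the Ogt cKO, against 218 FPKM in controls (log2 change -2.48, adjusted p = 0.00528).

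Glutathione peroxidases and glutaredoxins were called higher in 6 of 9 and lower in 1 of 9 in the Ogt cKO, higher in 2 and lower in 1 in the AD model, and higher in 1 and lower in 5 with Aβ. The glutaredoxin Glrx rose in all 3, by 1.32 in the Ogt cKO, 1.82 in the AD model and 1.44 with Aβ. Gpx7, a peroxidase of the endoplasmic reticulum, rose in the Ogt cKO (1.72) and fell with Aβ (-1.16), and its relative Gpx8 fell in the AD model (-0.85) and with Aβ (-1.28). Glrx3 rose in the Ogt cKO (1.37) and Gpx1, the main cytosolic peroxidase, in the AD model (0.59). Among 13 other glutathione transferases, the Ogt cKO had 5 higher and 1 lower, the AD model 4 higher, and Aβ 3 higher and 2 lower. The counts with Aβ are 23.1% and 15.4% of the list, near the shares of all genes. Gsto1 rose in the Ogt cKO, to a mean of 144 FPKM, against 18.6 FPKM in controls (log2 change 2.89), and Gstm4 rose there (0.58) and fell with Aβ (-0.39). Of 9 genes of glutathione breakdown and cysteine supply, the Ogt cKO had 2 higher and 2 lower, the AD model 1 higher and 1 lower, and Aβ 2 higher and 1 lower. These are 22.2% and 22.2% of the list in the Ogt cKO and 11.1% and 11.1% in the AD model. With Aβ they are 22.2% and 11.1%, so all are near the shares of all genes. The aminopeptidase Anpep, which cleaves cysteinylglycine, rose in the AD model (1.52) and with Aβ (1.85) and fell in the Ogt cKO (-0.74). Ggt7 fell in both amyloid experiments (-0.94 and -0.98), and in the Ogt cKO Oplah, which recycles 5-oxoproline, fell (-1.48) and Lap3 rose (1.11).

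Of 13 mitochondrial and other thioredoxin genes, the Ogt cKO had 6 higher and 1 lower, the AD model 1 higher and 2 lower, and Aβ 2 higher and 4 lower. Among all genes tested, the shares higher and lower were 22.6% and 19.8% in the Ogt cKO and 9.8% and 7.27% in the AD model. With Aβ they were 20.8% and 15.1%. Txn2, the mitochondrial thioredoxin, rose in the Ogt cKO (0.99), as did Txndc17 (1.02) and the methionine sulfoxide reductase Msrb3 (1.01). Msrb3 fell in the AD model (-1.28) and with Aβ (-0.83), and so did Txndc5 (-0.54 and -1.08), while Txndc17 fell with Aβ (-0.72) and Msrb2 rose in the AD model (0.47). Of 12 other genes of NADPH supply and the pentose phosphate pathway, the Ogt cKO had 5 higher and 3 lower, 0 changed in the AD model, and 3 were higher and 2 lower with Aβ. The counts with Aβ are 25% and 16.7% of the list, near the shares of all genes. The NAD kinase Nadk rose in the Ogt cKO (1.11), as did the folate enzyme Mthfd2 (1.49), and the mitochondrial kinase Nadk2 fell (-0.98). With Aβ, Rpe of the non-oxidative branch rose (1.21), and Pgls, which acts between G6pdx and Pgd (-0.74), and Mthfd1 (-0.58) fell.

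The genes that make superoxide were called higher in 7 of 8 in the AD model and 8 of 8 with Aβ, and in 0 of 8 in the Ogt cKO. Their median log2 changes were 2.31, 2.05 and 0.12, against -0.02, -0.04 and -0.0024 over all genes tested. The shares of all genes called higher were 9.8%, 20.8% and 22.6% in the same order. Cybb, the catalytic subunit of the phagocyte NADPH oxidase, had 44.7 and 192 FPKM in AD model libraries, against 3.10 and 8.55 FPKM in AD controls. With Aβ it had 78.03 and 46.9 FPKM in Aβ-treated libraries, against 1.92 and 7.38 FPKM in Aβ controls. All 4 amyloid libraries exceeded their controls, with log2 changes of 3.91 (SE 0.70, adjusted p = 0.00574) and 3.64 (SE 0.70, adjusted p = 0.00432). Rac2, the small GTPase of that oxidase, rose by 3.41 in the AD model and 2.85 with Aβ, and its cytosolic subunit Ncf4 by 2.66 in the AD model. Nox4, an oxidase of other cell types, rose with Aβ (2.53). Cybb, Rac2 and Ncf4 are expressed by microglia and macrophages. Their summed markers, mostly Lyz2, were higher in both amyloid groups, as given above. With Aβ, Tmem119 and Cx3cr1 were called lower and P2ry12 was not called. The part of microglia and macrophages in this result was not tested.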

How the data were processed

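The authors deposited 1 table of FPKM per gene (fragments per gene length and library depth) for 12 libraries, beside a length for every gene. The submitters' processing notes name the mm10 build. The aligner, counter, annotation, strand use and handling of shared reads were not given in the sources used here. Per the labels, total RNA was extracted with TRIzol from unsorted cultures, as far as the protocol says. Multiplied by gene length, the deposited FPKM were whole multiples of what 1 read is worth in that library (100% lay within 0.1 of a read). This gave 16418852 to 18705309 reads per library, which is 0.886 to 1.10 times the size that the deposited scale implies.

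Groups follow the sample descriptions. The 14014 genes that reached 1 FPKM in 2 or more libraries were kept. log2(FPKM + 1) was fitted with limma 3.58.1 in R 4.3.3, with 6 group means, an intensity trend, 6 residual and 2.92 prior degrees of freedom, two-sided tests, and p-values adjusted by Benjamini-Hochberg over all genes tested, called under 0.05. Differences between experiments were contrasts of the same fit. The added 1 understates the fold change of low genes such as Slc7a11. SE is that of the fitted log2 change. The scripts were tested on simulated data. Alternatives were a pseudocount of 0.1, no filter, a filter at 5 FPKM, rescaling to total reads, quantile normalization, voom with TMM factors on the recovered reads, removal of a length and GC trend (5 spline degrees of freedom), a replicate block, a fit of each comparison by itself and the removal of each library in turn. A crossed replicate block was added after seeing the data.

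The 37 genes and all lists were chosen with earlier results of these data known. Values in every library are given for up to 4 called genes per role by largest change and for Nfe2l2, Keap1, Nqo1, Gclc, Gclm, Slc7a11, Txnrd1, Srxn1, G6pdx and Sod2. Of each pathway list, up to 3 genes are named per comparison, those of largest change among called genes that averaged 5 FPKM or more in the higher group, and Hmox1. Library values of Cybb and the naming of further genes where calls were counted were chosen after their values were seen. Promoter windows and gene starts come from RefSeq, and exon overlaps from GENCODE. Figures were drawn in Python 3.11.15 with matplotlib 3.10.9.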

Additional observations from a re-analysis of the deposited data

Results flagged for a closer look

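The change of a gene differed between experiments by a limma contrast of the changes, with an adjusted p under 0.05 over all genes tested, in 40 cases. The values are differences of log2 changes.

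For the AD model minus the Ogt cKO the difference was positive for 13 genes, which were Mgst1 (3.45), Slc7a11 (2.51), Gstm1 (2.36), Blvrb (2.12), Gsr (1.98), Srxn1 (1.82), Gsta4 (1.69), Cat (1.69), G6pdx (1.59), Gclm (1.42), Prdx6 (1.09), Blvra (0.91) and Taldo1 (0.91). It was negative for 4 genes, Nqo1 (-2.70), Mgst3 (-1.497), Prdx2 (-1.21) and Gstm2 (-0.99).

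For Aβ minus the Ogt cKO the difference was positive for 13 genes, which were Mgst1 (3.90), Gstm1 (3.68), Slc7a11 (1.94), Gsr (1.83), Cat (1.79), Blvrb (1.75), Gclm (1.57), Gsta4 (1.48), Nfe2l2 (1.39), Prdx6 (1.27), G6pdx (0.98), Taldo1 (0.84) and Keap1 (0.66). It was negative for 10 genes, Nqo1 (-4.76), Txn1 (-1.85), Prdx2 (-1.73), Mgst3 (-1.60), Gss (-1.56), Gstm2 (-1.52), Gstm5 (-1.19), Gstp1 (-0.81), Prdx5 (-0.78) and Abcc1 (-0.58).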

How the results depend on the processing

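No called gene changed direction under any alternative listed above, and calls lost without 1 library are given beside each gene. Other alternatives ended these calls. With no filter on low values they were Keap1, Gstt1 and Cat in the Ogt cKO, Nfe2l2, Gstt1, Sod2 and Ugdh in the AD model, and Srxn1 and Blvra with Aβ. Rescaling to total reads ended Gstm2, Gstm5, Gstt1 and Ugdh in the Ogt cKO. Quantile normalization ended Gstm5, Gstp1 and Prdx1 in the Ogt cKO, Gstt1 and Ugdh in the AD model and Blvra with Aβ. Voom ended Gstt1 in the Ogt cKO and Nfe2l2, Gstm2 and Gstt1 in the AD model. Removal of the length and GC trend ended Gstm5, Gstp1 and Gstt1 in the Ogt cKO, Nfe2l2 and Ugdh in the AD model and Prdx1 with Aβ. Blvra with Aβ was also lost with a pseudocount of 0.1 and in the fit of its 4 libraries alone. With its 4 libraries alone, the AD model had 0 of 37 genes called by limma, against 22 in the fit of all libraries. In that fit 20 genes had an unadjusted p under 0.05. Fits of 4 libraries, with as few samples, called 24 genes for the Ogt cKO, against 17 in the fit of all libraries. They called 23 for Aβ, against 18. Calls over all genes tested also fell in the Ogt cKO and with Aβ when 1 library was left out. Leaving out 1 library gave 8 to 11 calls for the Ogt cKO (17 with all libraries), 15 to 20 for the AD model and 14 to 15 for Aβ. The count of genes whose change differed between the AD model and Aβ was 0, and 1 under voom, under removal of the length and GC trend and under the replicate block (Gstm1 each time), 1 with the Aβ numbers crossed in the block (Txn1), and 0 to 6 without 1 library. In the other alternatives this count stayed 0. Of the genes not called, 8 of 20 (Ogt cKO), 9 of 15 (AD model) and 6 of 19 (Aβ) changed sign under at least 1 alternative, and 8, 4 and 10 passed the threshold under at least 1. The cause was not tested. Rescaling to total reads moved the median change of all genes by -0.19 in the Ogt cKO, and 35.5% of its calls over all genes were then higher, against 53.3%. No label says that a replicate number marks a shared animal, batch or day, so the numbers were not taken as pairs (correlation of same-numbered deviations 0.03 for the Ogt cKO, 0.55 for the AD model and -0.17 for Aβ). The replicate block gave 17, 20 and 19 calls for the Ogt cKO, the AD model and Aβ, and the crossed block 20 for Aβ. The block ended the calls of Keap1 in the Ogt cKO and of Nfe2l2 and Ugdh in the AD model. With 2 libraries a group, genes of small change such as Sod1, Tkt and Me1 are not shown to be unchanged.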
